A study of Rattus norvegicus with 12 samples.

Results

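The 10 genes described here encode liver enzymes that break down amino acids, followed across 12 rats fed maple syrup or a sugar mix. They are Sds, Hal, Amt, Asrgl1 and Aspg, whose enzymes free ammonia, and Prodh, Aass, Bhmt, Tdo2 and Afmid, which degrade other amino acids or related compounds. They were chosen by name, with earlier results of these data known. Every probe set that carries 1 of these symbols alone was used, which gave 15 of the 31042 probe sets tested and 10 of the 14217 named genes. Of the 10 genes, 7 had 1 probe set, Prodh had 2, and Asrgl1 and Afmid had 3 each.

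The animals were male Wistar rats, an outbred laboratory strain, 5 weeks old per the labels. The maple syrup group, 6 rats, ate the purified AIN93G diet with 20% maple syrup added, and the sugar mix group, also 6 rats, ate it with 20% of a syrup blended to resemble maple syrup in its sugars. All rats had eaten the basal diet for 4 days, then received the syrup for 11 days and were fasted for 16 hours before the liver was taken. The labels speak of 7 and 8 rats per diet and call each array a biological replicate; the animals beyond the 12 arrays and any diet without syrup were not analysed here. The comparison addresses whether maple syrup, relative to its sugars, went with lower expression of genes that form ammonia, an effect that has been reported for this diet.

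Amino acids that are not used for protein lose their nitrogen in the liver, and the carbon that remains is oxidised or turned into glucose, which matters most in a fasted animal. Some enzymes release the nitrogen directly as ammonia, while many others pass it to glutamate, from which ammonia is freed later. Hepatocytes at the inflow side of the liver lobule carry much of this work and dispose of the ammonia through the urea cycle.

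The arrays gave a level per probe set on a scale that resembles log2 intensity but on which differences between animals are strongly compressed. Array medians lay between 7.36441 and 7.36458, a gap of 0.000169, while the range over the 12 livers had a median, across all probe sets, of 2.38e-05. The ranges of 9 of the 10 members, each taken from the probe set with the highest mean, were wider than the gap between array medians, as were those of 12.1% of all probe sets; Amt was the exception. The same 9 members were among the 3% of probe sets with the widest spread. Because a difference on this scale is no fold change, levels are given below as standard deviations of the probe set over the 12 livers (SD), with 0 as its mean. The diet difference is Hedges' g, the maple syrup mean minus the sugar mix mean divided by the SD within diets, with its 95% interval. The number of arrays limits the precision. Hepatocyte markers were present at high levels, for example 15.21 for Alb and 14.45 for Ttr on a table that ends at 15.2.

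No member differed between the diets after adjustment. With limma and Benjamini-Hochberg adjustment over 31042 probe sets, 0 of the 15 member probe sets were called, where 0% of all probe sets were called, and every member had an adjusted p of 1. Without adjustment 2 of the 15, those of Sds and Aspg, had a limma p under 0.05, beside 4.07% of all probe sets. That count of member probe sets, not genes, ran from 1 to 5 with single animals left out, the 5 without maple syrup replicate 3. Taking only the probe set with the highest mean per gene, Sds, Aspg and Afmid were counted without that animal. Their g was then -1.25, -1.23 and 1.34, so Afmid went the other way, higher with maple syrup. The rest were further probe sets of genes that have several. With arrays centred on their medians 2 member probe sets were again under 0.05. The count over all probe sets was then 314, beside 1264 as deposited. In no member did the 2 diets separate completely, which happened in 0.106% of all probe sets. In 7 of the 10 genes g was below 0, with a median of -0.61, while 52.9% of all named genes were below 0 with a median of -0.04. Over all 15 member probe sets 8 were below 0, with a median g of -0.13. Of all probe sets tested 51.4% were below 0, with a median of -0.02. Among the 5 ammonia-releasing enzymes 4 were below 0, with a median g of -0.75, and among the other 5 it was 3, with a median of -0.57. In tissue RNA, fewer cells that express a gene and less RNA in each cell cannot be told apart.

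**Figure D1:**
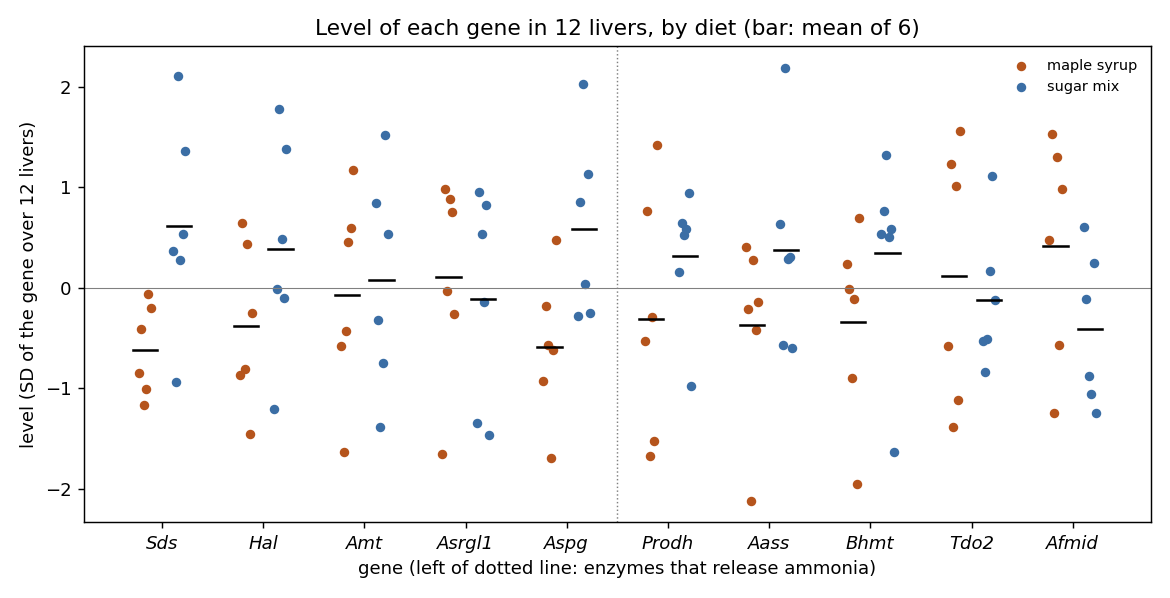
Level of each gene in each of 12 livers (vertical axis, SD of the gene over the 12 livers), with maple syrup animals to the left of sugar mix animals and a bar at each mean of 6. For Sds all 6 maple syrup animals lie below the sugar mix median of 0.45, but sugar mix replicate 2 lies among them at -0.94, and no gene shows fully separate diets.

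Sds encodes serine dehydratase, which splits serine into pyruvate and ammonia and rises in liver during fasting and on protein-rich diets. It had the lowest g of the members and the widest range, 0.126 in the deposited score. The 6 maple syrup livers ran from 7.79505 to 7.83788 with a median of 7.81575, and the 6 sugar mix livers ran from 7.80379 to 7.92134 with a median of 7.85723. In SD these are -1.17, -0.63 and -0.06 for the lowest, median and highest liver with maple syrup, and -0.94, 0.45 and 2.11 with sugar mix. The maple syrup livers were thus packed into the lower part of the range, 5 of the 6 sugar mix livers lay above all of them, and the sixth overlapped. The g of Sds was -1.41 (95% interval -2.60 to -0.18), maple syrup was lower in 32 of the 36 pairs of 1 animal from each diet, and the exact permutation p, two-sided, was 0.0238 before and 1 after adjustment over all probe sets. The means differed by -0.0474, which ranked 18 among the absolute differences of all 31042 probe sets, while the spread of Sds ranked 33; a ranking by raw difference favours probe sets with wide spread. Without sugar mix replicate 2 all 30 remaining pairs were lower and g was -2.25, with a limma adjusted p of 1; without sugar mix replicate 6 g was -1.23, the other end of the range with single animals left out.

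Hal encodes histidase, which removes ammonia from histidine to form urocanate. Its levels were -1.46, -0.53 and 0.64 SD for the lowest, median and highest maple syrup liver, and -1.21, 0.24 and 1.78 SD for the sugar mix livers. The diets overlapped over most of the range, and only 2 sugar mix livers, replicates 3 and 6 at 1.78 and 1.38 SD, lay above every maple syrup liver. The g was -0.75 (95% interval -1.82 to 0.36), with 26 of 36 pairs lower. With single animals left out g ran from -1.22, without sugar mix replicate 1, to -0.52, without sugar mix replicate 3. The later steps of the same route, Uroc1, urocanate hydratase, and Ftcd, which frees another ammonia while passing its one-carbon unit to folate, had g = -0.29 and -0.40. The Uroc1 probe set had a range of 2.31e-05, below the gap between array medians.

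Aspg and Asrgl1 encode asparaginases of different protein families, which split asparagine into aspartate and ammonia; the rat Aspg protein also has lysophospholipase activity. Aspg stood at -1.70, -0.59 and 0.47 SD for the lowest, median and highest maple syrup liver, and at -0.28, 0.45 and 2.03 SD for the sugar mix livers. Of the maple syrup livers 4 lay below every sugar mix liver, and maple syrup replicate 6 at 0.47 SD was the highest of its diet. The g was -1.31 (95% interval -2.47 to -0.10), maple syrup was lower in 31 of 36 pairs, and the exact permutation p, two-sided, was 0.039 before and 1 after adjustment over all probe sets.

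Asrgl1 showed no such order between the diets. Its brightest probe set had -1.66, 0.36 and 0.98 SD for the lowest, median and highest maple syrup liver, and -1.47, 0.20 and 0.95 SD for the sugar mix livers, with g = 0.20 (95% interval -0.86 to 1.24). The variation of Asrgl1 lay between animals instead: maple syrup replicate 1 at -1.66 SD and sugar mix replicates 1 and 6 at -1.35 and -1.47 SD stood apart from the other 9 livers, of which the lowest was at -0.26 SD. A probe set with a range of 0.0711, wider by far than the 0.00671 of the first, had the same 3 livers lowest, at -1.45, -1.48 and -1.67 SD, and its r with the first was 0.99. The other Asrgl1 probe set, with a range of 1.05e-05, did not follow them (r = 0.08 with the first), and its g was -0.45.

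Amt encodes the aminomethyltransferase of the glycine cleavage system, which releases the nitrogen of glycine as ammonia. Its probe set had a range of 1.83e-05, so Amt varied very little on this scale. The livers stood at -1.64, 0.01 and 1.17 SD with maple syrup and at -1.39, 0.11 and 1.52 SD with sugar mix for the lowest, median and highest, and g was -0.13 (95% interval -1.17 to 0.92). The partners of Amt in glycine cleavage, Gldc, Gcsh and Dld, had g = 0.02, -0.22 and -0.23. The probe sets of Gcsh and Dld had ranges of 7.07e-06 and 1.59e-05, below the gap between array medians.

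**Figure D2:**
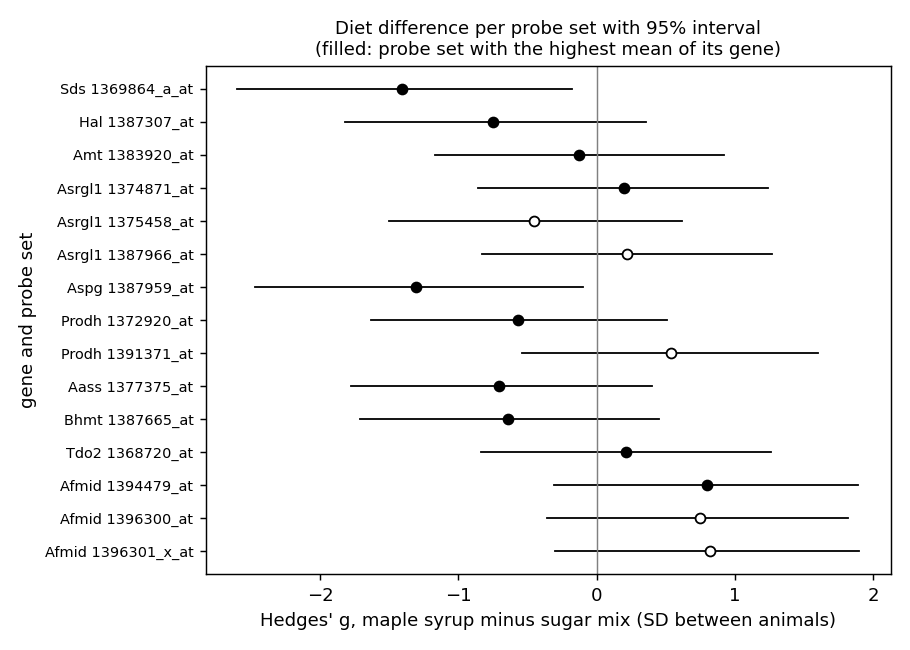
Hedges' g of maple syrup minus sugar mix (horizontal axis, SD between animals) with its 95% interval for the 15 member probe sets, filled where the probe set has the highest mean of its gene. The intervals of Sds (-2.60 to -0.18) and Aspg (-2.47 to -0.10) lie below 0 and all others include 0; the 3 Afmid probe sets coincide at 0.75 to 0.82, whereas the 2 of Prodh have opposite signs.

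Among the enzymes that do not free ammonia themselves, Prodh, Aass and Bhmt had g below 0. Prodh encodes proline dehydrogenase, the mitochondrial enzyme that starts proline oxidation. Its brighter probe set stood at -1.68, -0.41 and 1.42 SD for the lowest, median and highest maple syrup liver, against -0.98, 0.55 and 0.94 SD for the sugar mix livers. The spread was wider with maple syrup than with sugar mix (SD 0.00462 and 0.00256 in the deposited score, a difference that was not tested), and both the lowest and the highest liver of all were fed maple syrup. The g was -0.57 (95% interval -1.63 to 0.51), and it was -1.05 without maple syrup replicate 6 and -0.34 without maple syrup replicate 3. The dimmer Prodh probe set, with a range of 2.73e-05, had g = 0.54 and an r of -0.52 with the brighter.

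Aass encodes aminoadipic semialdehyde synthase, which carries out the opening steps of lysine degradation in mitochondria. It stood at -2.12, -0.18 and 0.40 SD for the lowest, median and highest maple syrup liver, against -0.60, 0.29 and 2.19 SD for the sugar mix livers. Maple syrup replicate 3 was far below and sugar mix replicate 3 far above the remaining livers, which lay between -0.60 and 0.63 SD. The g was -0.71 (95% interval -1.78 to 0.40), and it was -0.45 without either of these 2 livers and -0.90 without sugar mix replicate 6.

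Bhmt encodes betaine-homocysteine methyltransferase, which returns homocysteine to methionine at the expense of betaine from choline. It stood at -1.95, -0.06 and 0.69 SD for the lowest, median and highest maple syrup liver, against -1.64, 0.55 and 1.32 SD for the sugar mix livers. Of the sugar mix livers 5 lay between 0.50 and 1.32 SD and replicate 6 lay at -1.64 SD. Maple syrup was lower in 28 of 36 pairs, with g = -0.64 (95% interval -1.71 to 0.45). With single animals left out g ran from -1.33, without sugar mix replicate 6 (limma adjusted p of 0.929), to -0.39, without maple syrup replicate 5.

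Tdo2 and Afmid encode the enzymes of the opening and the following step of tryptophan degradation: tryptophan 2,3-dioxygenase makes N-formylkynurenine, from which arylformamidase makes kynurenine. Tdo2 stood at -1.39, 0.22 and 1.56 SD for the lowest, median and highest maple syrup liver, against -0.84, -0.31 and 1.11 SD for the sugar mix livers. The maple syrup livers spanned the wider range, on both sides of the sugar mix livers, and exactly 18 of 36 pairs went each way (g = 0.21, 95% interval -0.84 to 1.26). Afmid was the member with the highest g, 0.80 (95% interval -0.31 to 1.89). It stood at -1.25, 0.73 and 1.53 SD with maple syrup, against -1.25, -0.50 and 0.60 SD with sugar mix. Of the maple syrup livers 3 lay above every sugar mix liver, and replicate 3 was as low as the lowest sugar mix liver. The 3 Afmid probe sets agreed closely, with r of 0.99 in each of their 3 pairings and g of 0.80, 0.75 and 0.82. With single animals left out the g of Afmid ran from 0.60, without maple syrup replicate 2, to 1.34, without maple syrup replicate 3, each with a limma adjusted p of 1.

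**Figure D3:**
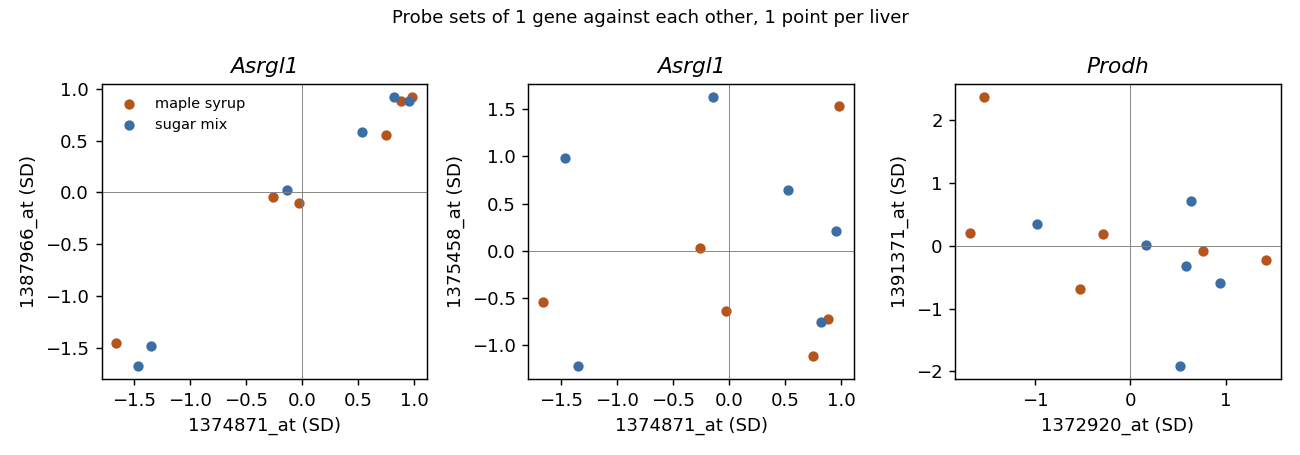
Probe sets of the same gene plotted against each other, 1 point per liver, both axes in SD over the 12 livers, maple syrup and sugar mix in different colours. The 2 Asrgl1 probe sets of wide spread fall on a line (r = 0.99) with 3 livers at its lower end, whereas the narrow probe sets of Asrgl1 (r = 0.08) and Prodh (r = -0.52) do not follow the wide ones.

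The other genes of amino acid degradation were split about as all genes were, with 52.5% below 0 beside 52.9% of all named genes. Of 65 genes listed by pathway, 59 were measured, and none passed the limma test in either direction (0 higher, 0 lower). Of the 59, 28 had g above 0 and 31 below, and their median g was -0.07, beside -0.04 for all named genes. An unadjusted limma p under 0.05 was found for 3 as deposited, 0 after quantile normalization and 1 with arrays centred on their medians. The further enzymes that release ammonia were split evenly, 8 above and 8 below 0, with a median of -0.04. At the lower end stood Sdsl, a relative of Sds (g = -0.97), and Gls2, the liver glutaminase (g = -0.92, 95% interval -2.02 to 0.22). At the upper end stood Ampd3, an AMP deaminase (g = 1.15, 95% interval -0.03 to 2.28), while Glud1, glutamate dehydrogenase, had g = 0.74 and Cth, cystathionine gamma-lyase, had g = 0.35. The probe sets of Sdsl, Ampd3 and Glud1 had ranges of 3.7e-05, 2.3e-05 and 5.53e-05, below the gap of 0.000169 between array medians. Of the 59 genes, 29 had a range wider than that gap, beside 1918 of the 14217 named genes.

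Tryptophan degradation beyond Tdo2 and Afmid had 3 genes above and 3 below 0, from Kyat1, a kynurenine aminotransferase (g = -1.37, 95% interval -2.54 to -0.14), to Kynu, kynureninase (g = 0.77). In lysine degradation beyond Aass 3 of 4 genes were above 0, from Aldh7a1, an aldehyde dehydrogenase of that route (g = -0.53) to Dhtkd1, a subunit of the oxoadipate dehydrogenase (g = 0.22). In proline degradation beyond Prodh, 2 of 4 were above 0, from Prodh2, a hydroxyproline dehydrogenase (g = -0.70), to Hoga1 (g = 0.24), which acts later on the hydroxyproline route. In the methionine and choline list, which surrounds Bhmt, 5 of 9 were below 0, from Bhmt2 (g = -1.17), a related methyltransferase, to Chdh, choline dehydrogenase (g = 0.69). The Bhmt2 probe set had a range of 3.64e-05, also below the gap between array medians. In phenylalanine and tyrosine degradation 5 of 6 were below 0, with Tat, tyrosine aminotransferase, at g = -0.51, Hgd, homogentisate dioxygenase, the lowest (g = -0.86) and Qdpr, dihydropteridine reductase, which regenerates tetrahydrobiopterin, the highest (g = 0.64). In the degradation of branched-chain amino acids 9 of 15 were above 0, from Bckdha, a subunit of the branched-chain keto acid dehydrogenase (g = -0.29), to Aldh6a1, methylmalonate semialdehyde dehydrogenase (g = 0.72). All of these had a limma adjusted p of 1. Like that of Bhmt2, the probe sets of Bckdha and Aldh6a1 had ranges below the gap between array medians, 2.91e-05 and 1.54e-05.

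**Figure D4:**
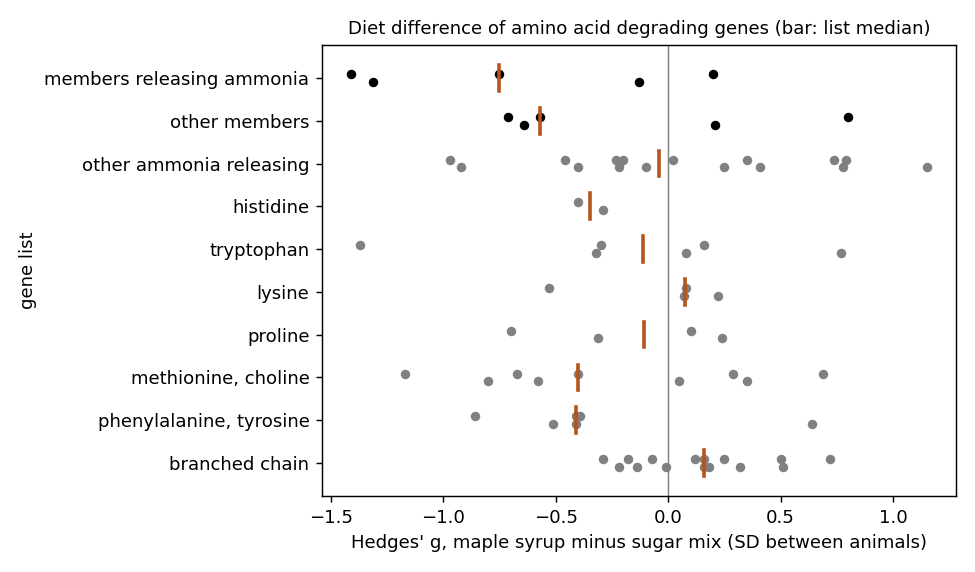
Hedges' g of maple syrup minus sugar mix (horizontal axis, SD between animals) for each gene of the amino acid degradation lists, 1 point per gene, with a bar at each list's median. The median of the ammonia-releasing members is -0.75, that of the 16 other ammonia-releasing genes is -0.04 and that of the branched-chain list is 0.16. These sets are unlike in spread. The range was wider than the gap between array medians in 4 of the 5 members and in 8 of the 16 others. Members and lists were chosen with earlier results of these data known.

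A correlation over livers is unchanged by a linear rescaling of a probe set, but other changes of scale can move it, so r after quantile normalization is given for the pairs described. Over the 12 livers 34 of the 45 pairs of genes were positively correlated and 11 negatively, with a median r of 0.23. Of the 45 pairs 7 had a permutation p of r under 0.05 before adjustment, the lowest r among them being 0.58. Of all pairs among named genes 3.31% had an r at least that high, and 25.6% reached 0.23. Among the genes of widest spread, the set used below, these shares were 4.82% and 27.2%. The 45 pairs share genes, and their excess over these shares was not tested. After Benjamini-Hochberg adjustment over the 45 pairs 0 passed, by Pearson's r or by Spearman's rho. The pairs below are therefore a description of these livers.

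The pair with the highest r was Prodh and Bhmt, with r = 0.82 (permutation p = 0.00118, adjusted 0.0531) and rho = 0.73 (permutation p = 0.00977, adjusted 0.147). It held at r = 0.82 within the maple syrup animals and 0.89 within the sugar mix animals, and at 0.71 without the 2 animals farthest from the median of Prodh, maple syrup replicates 3 and 5; after quantile normalization r was 0.73. Of all 100969155 pairs among named genes 0.109% had an r at least as high, and among the genes with the widest 10% of spreads 0.328% did. Prodh also went with Tdo2 (r = 0.69, permutation p = 0.0153, adjusted 0.27; rho = 0.75, permutation p = 0.00726, adjusted 0.147). That relation was 0.93 within the maple syrup animals and 0.25 within the sugar mix animals, and it was 0.46 without maple syrup replicates 3 and 5, so it rests partly on those animals; after quantile normalization it was 0.50.

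The highest rho was that of Aspg and Bhmt, 0.77 (permutation p = 0.005, adjusted 0.147), where r was 0.57 (permutation p = 0.0541, adjusted 0.271). Their r was 0.24 within the maple syrup animals, 0.66 within the sugar mix animals, 0.56 without maple syrup replicate 4 and sugar mix replicate 3, and 0.35 after quantile normalization. The order of the pairs thus differs between the 2 measures. Aspg and Prodh had rho = 0.71 (permutation p = 0.013, adjusted 0.147) and r = 0.57 (permutation p = 0.0517, adjusted 0.271), with 0.52 within the maple syrup animals, 0.57 within the sugar mix animals, 0.73 without the same 2 livers and 0.42 after quantile normalization.

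Tdo2 and Afmid, the consecutive enzymes of the tryptophan route, had r = 0.66 (permutation p = 0.0229, adjusted 0.27) and rho = 0.53 (permutation p = 0.0806, adjusted 0.496). Within the maple syrup animals r was 0.91 and within the sugar mix animals it was 0.06, a difference that was not tested, without maple syrup replicates 2 and 6 it was 0.47, and after quantile normalization it was 0.39. Aass and Bhmt had r = 0.61 (permutation p = 0.0327, adjusted 0.27) and rho = 0.55 (permutation p = 0.0671, adjusted 0.496), with 0.45 within the maple syrup animals, 0.64 within the sugar mix animals, 0.52 without maple syrup replicate 3 and sugar mix replicate 3, and 0.53 after quantile normalization.

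The r of Sds was 0.62 with Aspg (permutation p = 0.0311, adjusted 0.27; rho = 0.53, permutation p = 0.0792, adjusted 0.496) and 0.62 with Aass (permutation p = 0.036, adjusted 0.27; rho = 0.45, permutation p = 0.141, adjusted 0.531). Without sugar mix replicates 3 and 6, the 2 farthest from the median of Sds, these were 0.48 and 0.56. With single animals left out they ran from 0.34 to 0.76 and from 0.30 to 0.79, both lowest without sugar mix replicate 3, the liver with the highest Sds. Sds and Hal had r = 0.58 (permutation p = 0.0452, adjusted 0.271; rho = 0.34, permutation p = 0.288, adjusted 0.747), and without sugar mix replicates 3 and 6 it was -0.08, so the relation rests on those 2 livers. After quantile normalization the r of Sds was 0.71 with Aspg, 0.63 with Aass and 0.60 with Hal. Within diets Sds and Aspg had r = 0.61 with maple syrup and 0.31 with sugar mix, Sds and Aass 0.31 and 0.65, and Sds and Hal -0.17 and 0.68.

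**Figure D5:**
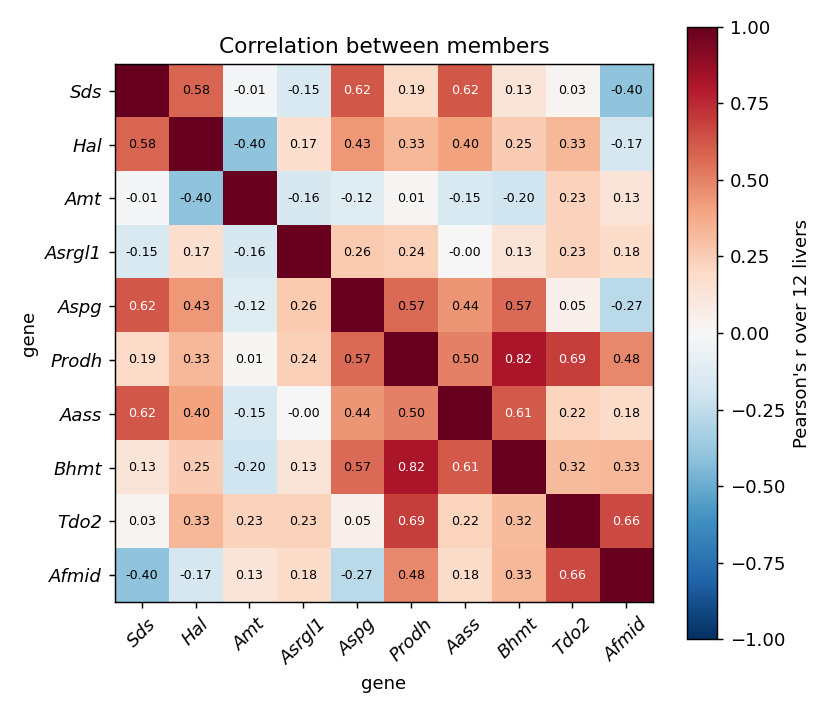
Pearson's r over the 12 livers for each pair of the 10 genes, in the order of both axes. Prodh and Bhmt have the highest r (0.82). The lowest value is -0.40, for Sds with Afmid and for Hal with Amt (permutation p = 0.192 and 0.195, adjusted 0.549 for each). Without sugar mix replicates 3 and 6 these were -0.03 and -0.37, and after quantile normalization -0.10 and -0.25.

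Among all 14210 other named genes with at least 10 distinct values over the 12 livers, the gene whose pattern was most like that of Sds was Got1, the cytosolic aspartate aminotransferase, with r = 0.92 and rho = 0.91. The likeness was 0.92 within the maple syrup animals, 0.93 within the sugar mix animals and 0.84 without the 2 livers farthest from the Sds median. Slc25a15, the ornithine carrier of the mitochondrial membrane, followed with r = 0.88 (0.67 within maple syrup, 0.93 within sugar mix, 0.66 without those 2 livers) and Zfp827, a zinc finger gene whose probe set had a range of 1.98e-05, with 0.87 (0.39 within maple syrup, 0.85 within sugar mix). For Hal the nearest were Chrm2, a muscarinic receptor (r = 0.90), Usb1, an RNA-processing enzyme (r = 0.84), and Gal, the neuropeptide galanin (r = 0.84). The ranges of their probe sets, 1.11e-05, 9.64e-06 and 3.29e-05, were far below the 0.00409 of Hal. These genes were picked for their r out of all genes, so no p is given for them.

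RefSeq promoter windows were at hand for 7 of the 10 members, and those of 4 are shown: Bhmt and Aass, and the consecutive tryptophan enzymes Tdo2 and Afmid, pairs picked for their r of 0.61 and 0.66, neither of which passed after adjustment. Each is the 250 bases before the annotated start of transcription on assembly GRCr8, written 5′ to 3′ on the strand of the gene. Bhmt lies at chr2:26614430-26614679 on the minus strand, Aass at chr4:52628812-52629061 on the minus strand, Tdo2 at chr2:169585587-169585836 on the minus strand and Afmid at chr10:103544624-103544873 on the plus strand. Capitals mark matches, on either strand, to a TATA box (TATAAA), a glucocorticoid receptor core motif (AGAACA), the core of the cAMP response element (TGACG) or a C/EBP motif (TTGCNNAA); glucocorticoids and cAMP are signals of fasting, and C/EBP factors are abundant in liver.
Bhmt: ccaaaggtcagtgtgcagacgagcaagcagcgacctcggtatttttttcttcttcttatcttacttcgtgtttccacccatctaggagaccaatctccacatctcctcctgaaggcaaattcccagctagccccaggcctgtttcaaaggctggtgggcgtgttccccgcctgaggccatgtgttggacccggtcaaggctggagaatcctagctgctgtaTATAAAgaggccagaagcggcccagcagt
Aass: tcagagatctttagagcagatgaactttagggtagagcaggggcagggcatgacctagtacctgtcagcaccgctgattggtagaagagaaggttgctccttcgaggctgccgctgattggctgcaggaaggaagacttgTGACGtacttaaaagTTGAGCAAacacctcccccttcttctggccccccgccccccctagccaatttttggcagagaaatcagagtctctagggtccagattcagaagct
Tdo2: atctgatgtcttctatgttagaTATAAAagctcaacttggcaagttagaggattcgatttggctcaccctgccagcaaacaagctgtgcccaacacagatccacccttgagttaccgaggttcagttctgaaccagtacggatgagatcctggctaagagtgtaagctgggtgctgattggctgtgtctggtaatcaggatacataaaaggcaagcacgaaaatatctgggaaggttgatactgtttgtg
Afmid: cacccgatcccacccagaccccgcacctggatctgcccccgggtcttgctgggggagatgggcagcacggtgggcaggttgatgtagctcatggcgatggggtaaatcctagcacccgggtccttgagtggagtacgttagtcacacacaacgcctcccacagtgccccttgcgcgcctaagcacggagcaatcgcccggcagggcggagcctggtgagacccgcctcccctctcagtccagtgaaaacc
In Bhmt a TATA box lies 29 to 24 bases before the start, and in Tdo2 the same letters lie 228 to 223 bases before it. Aass holds the cAMP motif 110 to 106 bases and the C/EBP motif, read on the opposite strand, 95 to 88 bases before the start. Afmid has none of these letters in the window. No matches overlapped. Of the 33469 promoters of the same length, 12.9% hold the TATA letters, 17.5% the glucocorticoid receptor letters, 18.2% the cAMP letters and 9.22% the C/EBP letters, so matches of this kind are common; they describe the sequence and do not mark a site in use.

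Markers of cell types, hepatocytes and others, did not separate the diets either, and their part in the differences of the members was not tested. Kupffer cell and macrophage markers had 4 of 5 genes below 0 with a median g of -0.25, and their mean level ran from -1.45 to 0.82 SD in maple syrup livers and from -0.21 to 0.55 SD in sugar mix livers. Hepatocyte markers had 3 of 5 genes above 0, sinusoidal endothelial markers 3 of 4, stellate cell and fibroblast markers 2 of 5, cholangiocyte markers 1 of 3, erythroid markers 3 of 4, T and NK cell markers 2 of 4, pancreatic acinar markers 1 of 3 and adipocyte markers 1 of 3. All had a limma adjusted p of 1. The 5 hepatocyte markers barely varied, with ranges from 1e-08 for Alb to 1.13e-05 for Fgb, below the median probe set range of 2.38e-05. Their signs therefore say little about cell content.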

How the data were processed

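The deposited table holds the authors' processed value, treated as a score, for 31099 probe sets on 12 Affymetrix arrays hybridised with biotin-labelled cRNA from liver, per the labels' protocols. How it was summarized and normalized is not given in the sources at hand, and the origin of the compressed scale is unknown. The 57 control probe sets were left out. Symbols came from the platform annotation, updated through the RefSeq gene table: 20826 tested probe sets had 1 symbol. All probe sets were fitted with limma 3.58.1 in R 4.3.3 (lmFit, eBayes with an intensity trend, two-sided, no block, prior degrees of freedom 0.707), with Benjamini-Hochberg adjusted p of 0.05 over all 31042. The design had been written for values that might be log2; it was kept because each probe set's own spread enters the test. Intervals of g come from the noncentral t distribution. Correlations used scipy 1.17.1 and numpy 2.4.6 with 100000 permutations, and figures matplotlib 3.10.9. The limma script was tested on simulated data with the real spreads. Where a gene had several probe sets, the one with the highest mean over all arrays stood for it.

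The 10 members are all named; of the pathway lists, the genes with the lowest and the highest g were named, plus Glud1, Gls2, Tat and Cth, and for Sds and Hal the 3 genes most like each. Gldc, Gcsh and Dld, the partners of Amt, were named outside this rule, after their values were seen. The members and lists were chosen with earlier results of these data known. Detection calls and genes without a named probe set were not used here. Replicate numbers were not taken as pairs: over all probe sets the deviations of same-numbered animals correlated at -0.04 to 0.13, and 0 of 12 animals were closest to their own number. The precision is limited by 6 arrays per diet. The closing section lists the alternatives tried.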

Additional observations from a re-analysis of the deposited data

Results flagged for a closer look

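Each of the 15 member probe sets was examined in each diet for a single animal well away from its 5 companions; this occurred in 3 of the 30 cases, and about 1.5 would arise by chance. Values are in SD of the probe set over the 12 livers. Aass was at -2.12 in maple syrup replicate 3, below the other 5 maple syrup livers. Bhmt was at -1.64 in sugar mix replicate 6, below the other 5 sugar mix livers. The dimmer Prodh probe set, whose range was only 2.73e-05, was at 2.37 in maple syrup replicate 5, above the other 5 maple syrup livers.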

How the results depend on the processing

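Under every alternative run (quantile normalization, arrays centred on their medians, 1 probe set per gene, leaving out the lowest 30% of probe sets, a floor at the 20th percentile, no intensity trend, robust variance, unit standard deviation within diets with an ordinary t, array weights, the replicate block, the exact permutation test over 924 arrangements and each animal left out) 0 probe sets, 0 member probe sets and 0 genes of the pathway lists passed. The removal of each array's median SD score was added after seeing the data, with the same counts. With the replicate number as a block the count was 0 as well. The direction of Sds, Hal, Aspg, Prodh, Aass, Bhmt and Afmid held in all 23 alternatives. Several of these could not reverse it. Settings that change only the variance, the scale or the probe sets included, the floor and the replicate block keep the sign of a member's difference of means. The fits with 1 animal left out share most of their animals. The moderated t of Sds ran from -4.22 to -2.32 with single animals left out, beside -2.75 with all 12. The t of Amt, -0.24 as deposited, ran from -0.73 to 0.28 with single animals left out and became 0.50 under quantile normalization, 0.67 with centred arrays, 0.28 without maple syrup replicate 2, and 0.01 and 0.24 without sugar mix replicates 1 and 5. The t of Asrgl1, 0.38 as deposited, ran from -0.09 to 1.11 with single animals left out, with -0.05 and -0.09 without sugar mix replicates 1 and 6, and that of Tdo2, 0.41 as deposited, ran from -0.09, without maple syrup replicate 6, to 0.98; the cause was not tested. No pair of members passed with another setting (0 of 45 each). With 6 arrays per diet the interval of Sds reaches from -2.60 to -0.18, so sizes in between cannot be told apart.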

Other observations

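Asrgl1 fell into a low set of 3 livers and a high set of 9 in both of its probe sets with wide spread, and the low set held animals of both diets: maple syrup replicate 1 and sugar mix replicates 1 and 6. On the brighter probe set the 3 livers lay from -1.66 to -1.35 SD and the other 9 from -0.26 to 0.98 SD. On the other they lay from -1.67 to -1.45 SD and the other 9 from -0.10 to 0.92 SD. Within the 9, maple syrup replicates 3 and 6 and sugar mix replicate 4 lay from -0.26 to -0.03 SD on the brighter probe set and from -0.10 to 0.02 SD on the other, and the remaining 6 livers from 0.53 to 0.98 SD and from 0.55 to 0.92 SD. No other member had the same 3 livers lowest.

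Sugar mix replicate 3 had the highest level of all 12 livers in 5 members, Sds (2.11 SD), Hal (1.78 SD), Aspg (2.03 SD), Aass (2.19 SD) and Bhmt (1.32 SD). Maple syrup replicate 3 had the lowest Sds (-1.17 SD), Prodh (-1.68 SD), Aass (-2.12 SD) and Tdo2 (-1.39 SD). It shared the lowest Afmid level (-1.25 SD) with sugar mix replicate 6 to the digits given. These livers were singled out after their values were seen. How often each was highest or lowest over all probe sets was not counted, so the counts cannot be set apart from a trait of the whole array. The members are also not separate observations. For example, Sds and Aass had r = 0.62, and 0.30 without sugar mix replicate 3.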
